A study of Homo sapiens with 6 samples.

Results

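S100 calcium-binding protein genes were examined in HCC827 cells grown in 3D and in 2D. A list of 10 genes was named (S100A2, S100A3, S100A6, S100A10, S100A11, S100A13, S100A14, S100A16, S100P and S100B), and a gene was taken as measured where a probe set of the array carried its symbol. This held for 8 of the 10 genes, out of 18033 genes with a symbol among 22011 probe sets. No probe set carried S100A2, an S100 protein of epithelia, or S100A3, a zinc-binding protein of the hair cuticle, so both were not analysed here. Each of the 8 measured genes had 1 probe set, and none of these was shared with another gene.

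HCC827 is an established human lung adenocarcinoma line with an activating deletion in EGFR. Total RNA of this single line was hybridised to 6 Affymetrix human exon arrays, 3 of 3D cultures and 3 of 2D cultures. Per the labels, the 3D cultures were spheroids made in hanging drops and embedded into Matrigel, a basement membrane extract, whereas the paper's account of the arrays names spheroids and not Matrigel. The 2D cultures were grown on plastic without coating, and both were kept in RPMI or McCoy's medium with fetal calf serum, glutamine and antibiotics with no drug named in the labels. Whether the replicates came from separate cultures is not stated, so the p-values measure the spread between these arrays, which may be technical.

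S100 proteins are small calcium-binding proteins found in vertebrates, each with a pair of EF-hand loops, which in most members hold calcium. Most form dimers, open a hydrophobic face when calcium rises and then bind target proteins such as annexins, and some are also released from cells and bind the receptor RAGE. Epithelia express many of them, most of the genes lie in a cluster on the long arm of human chromosome 1 beside genes of epidermal differentiation, and several are known as markers of carcinomas. In the RefSeq annotation 8 of the 10 named genes lay on chromosome 1, while S100P lay on chromosome 4 and S100B on chromosome 21. On chromosome 1, S100A16, S100A14 and S100A13 followed one another in the order of the named genes.

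The values are log2 signals after RMA, a method that corrects background, equalises the distributions of all arrays and summarises the probes of a gene. Every array had a median of 6.26 and a range of 1.60 to 13.59, and the values hold no call of signal against background. Pairs of 3D arrays correlated at 0.956 to 0.974 across probe sets and pairs of 2D arrays at 0.980 to 0.987, with 0.943 to 0.975 for mixed pairs. 3D replicate 2 stood apart, with a first principal component of 58.8. The other 3D arrays had 22.8 and -2.99, and the 2D arrays had -37.2 to -8.04. For several genes the difference is also given without 3D replicate 2. Of 14 markers of lung epithelium and carcinoma, EPCAM, CDH1 and KRT8 had mean signals at the 93.9, 95.7 and 95.8 percentile of all probe sets of both cultures together, and the probe set shared by NKX2-1, a lung lineage factor, and SFTA3 lay at the 46.9 percentile. The 14 markers ran from the 35.55 percentile (ELF3) to the 96.23 percentile (ESRP1), and SFTPB lay at 38.95. Summed over the 14 markers, the log2 signals were 113.9 to 116.6 in 3D and 118.0 to 120.5 in 2D. In this list 4 differences were above 0 and 10 below, and 0 passed the threshold. At an unadjusted limma p of 0.05, 2 were higher and 6 lower. Over all probe sets 7.17% were higher and 7.94% lower at that p, and 56.6% of differences were above 0. The 3D arrays lay wholly below the 2D arrays for 7 markers (CDH1, KRT7, KRT18, KRT19, CLDN4, ESRP1 and EGFR) and wholly above for 2. Over all probe sets the shares were 10.04% wholly below and 12.7% wholly above. The largest differences in this list were those of KRT19, a keratin of simple epithelia (-1.16, limma adjusted p = 0.127), and of the probe set shared by NAPSA, the aspartic protease napsin A of alveolar cells, and NAPSB (0.84, adjusted p = 0.151). In bulk RNA, fewer cells of a kind and less RNA per cell cannot be told apart.

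None of the 8 S100 genes passed an adjusted p of 0.05 between 3D and 2D, in either direction (limma, Benjamini-Hochberg over all probe sets). Over all 22011 probe sets, 0.145% were called higher in 3D and 0.236% were called lower. At an adjusted p of 0.1, S100A6 was the single S100 gene called (higher in 3D), beside 0.386% of all probe sets called higher and 0.931% called lower. At an unadjusted p of 0.05, S100A6 and S100A13 were higher and 0 of 8 genes were lower, beside 7.17% and 7.94% of all probe sets. The 3D arrays lay wholly above the 2D arrays for the same S100A6 and S100A13 and wholly below them for S100A10, beside 12.7% and 10.04% of all probe sets. The median log2 difference of the 8 genes was 0.23, with 5 above 0 and 3 below, against a median of 0.05 over all probe sets.

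**Figure D1:**
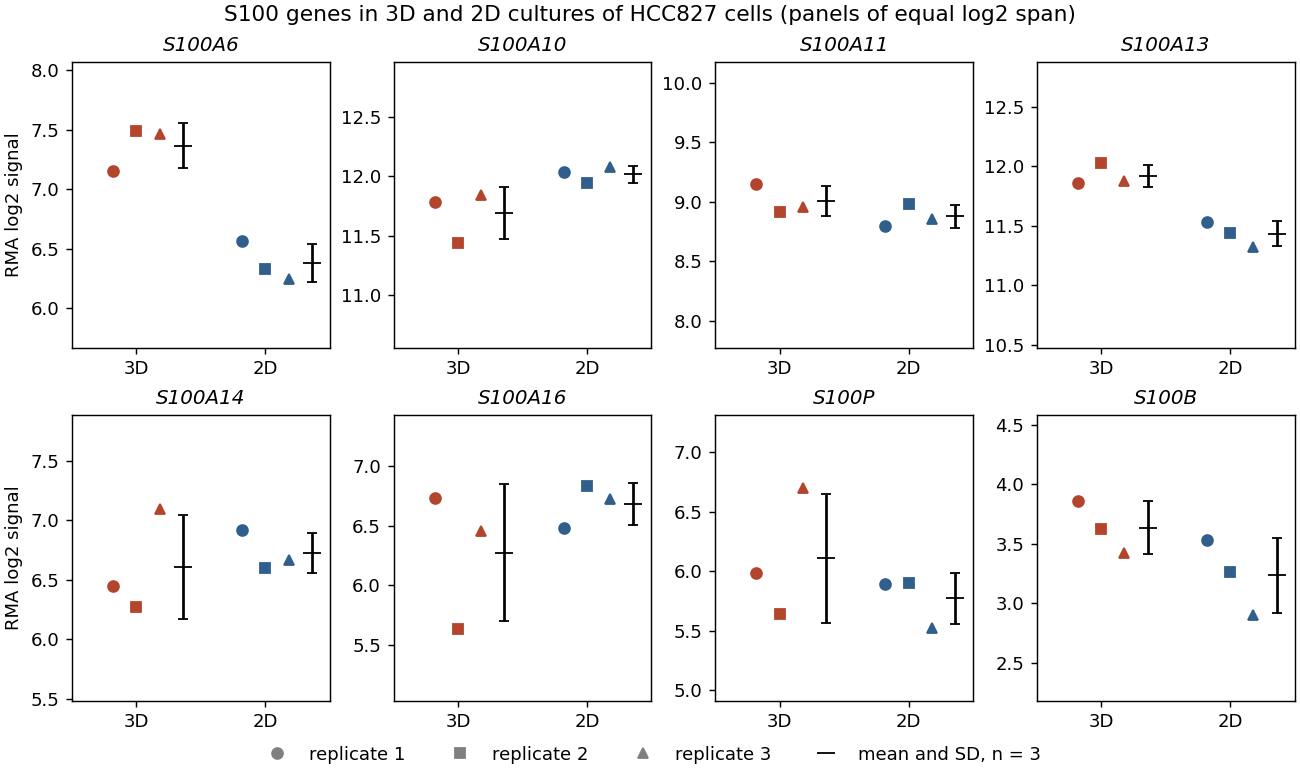
RMA log2 signal (vertical axis) of the 8 measured S100 genes in each 3D array (left, red) and each 2D array (right, blue), with the marker shape giving the replicate number and bars the mean and SD of 3 arrays. The 3D points lie above all 2D points for S100A6 and S100A13 and below them for S100A10, and overlap them for the other 5 genes.

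The sequences before the start sites of the 3 genes whose groups did not overlap are shown, as a guide to the genes described first below. None of the 3 passed the threshold, and their number is to be read against the 12.7% and 10.04% of all probe sets. Each is the 250 bases upstream of a transcript start in RefSeq (GRCh38.p14), read 5' to 3' on the minus strand. Capitals mark the motifs TATAA (the core of the TATA box) and GGGCGG (the GC box, bound by Sp1-like factors) on either strand.
S100A6, chr1:153535992-153536241: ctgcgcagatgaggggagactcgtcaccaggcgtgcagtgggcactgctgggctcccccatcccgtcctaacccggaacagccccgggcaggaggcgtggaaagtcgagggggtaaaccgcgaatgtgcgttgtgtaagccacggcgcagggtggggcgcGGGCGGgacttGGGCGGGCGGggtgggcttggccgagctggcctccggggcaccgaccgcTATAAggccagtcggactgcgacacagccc
S100A10, chr1:151993860-151994109: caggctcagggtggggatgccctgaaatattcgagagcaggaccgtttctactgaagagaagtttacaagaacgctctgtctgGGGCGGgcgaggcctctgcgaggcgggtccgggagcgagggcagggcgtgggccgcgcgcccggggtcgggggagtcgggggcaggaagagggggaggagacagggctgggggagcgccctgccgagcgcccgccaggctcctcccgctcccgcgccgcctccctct
S100A13, chr1:153627506-153627755: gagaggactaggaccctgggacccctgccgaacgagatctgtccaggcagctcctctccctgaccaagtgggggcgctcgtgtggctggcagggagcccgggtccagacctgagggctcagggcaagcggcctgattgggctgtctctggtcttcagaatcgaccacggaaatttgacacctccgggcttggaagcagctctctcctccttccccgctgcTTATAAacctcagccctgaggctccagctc
The S100A6 window held TATAA 30 bases before the start and 3 GC boxes, of which those nearest the start overlap, and its GC content was 70.0%. The S100A10 window held 1 GC box, did not hold TATAA, and was 71.2% GC. The S100A13 window shown held TATAA on both strands at overlapping bases but lacked a GC box, and was 62.8% GC. RefSeq gave 3 starts for S100A13, of which the one shown was chosen for its TATAA. Of the others, 1 window held a GC box without TATAA and 1 held neither, and the probe set does not tell which start the cells used. Of the 9 named genes with a window, 4 held TATAA (S100A6, S100A13, S100A14 and S100P), 6 held GGGCGG and 2 held TGANTCA, the AP-1 site (S100A2 and S100A3), in any of their windows. Counted by window, these were 4, 6 and 2 of 13 windows, and over 35116 windows of the same length the shares were 18.9%, 42.6% and 6.57%. Some genes have several windows, and a match describes the letters only.

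S100A6, or calcyclin, is a cytosolic S100 protein of growing cells that binds annexins and the ubiquitin ligase adaptor CACYBP. Its log2 signal was 7.15, 7.49 and 7.46 in 3D replicates 1, 2 and 3, against 6.56, 6.33 and 6.25 in 2D replicates 1, 2 and 3. All 3D arrays were above all 2D arrays, with 0.59 between the lowest 3D and the highest 2D array. The means were 7.37 ± 0.19 in 3D and 6.38 ± 0.16 in 2D (SD, n = 3 each), a difference of 0.99 ± 0.17 (SE) and a ratio of 1.98 (95% interval 1.51 to 2.60), with a limma adjusted p of 0.0661 that missed the threshold. It ranked 150 of 22011 probe sets by p. The difference stayed between 0.92 and 1.09 when each array was left out in turn, with adjusted p from 0.0825 to 0.299. It passed the threshold when dim probe sets were left out (adjusted p = 0.0396) and with array weights (0.93, adjusted p = 0.0430). CACYBP itself differed by 0.13 (95% interval -0.57 to 0.84, adjusted p = 0.855).

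S100A13 takes part in the release of FGF1 and IL1A, proteins that leave cells without a signal peptide. Its log2 signal was 11.86, 12.03 and 11.88 in 3D replicates 1, 2 and 3, against 11.53, 11.44 and 11.32 in 2D replicates 1, 2 and 3. The groups did not overlap and were 0.33 apart at their nearest arrays, and the spread within each group was small. The means were 11.92 ± 0.09 in 3D and 11.43 ± 0.10 in 2D (SD, n = 3 each), a difference of 0.49 ± 0.15 (SE) and a ratio of 1.40 (95% interval 1.11 to 1.78), with a limma adjusted p of 0.208. Without single arrays the difference was 0.43 to 0.54, and the lowest adjusted p over all alternatives was 0.0962. This probe set lay at the 98.6 percentile of mean signal.

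The cargo genes of S100A13 had values of their own. IL1A, which encodes the cytokine interleukin-1 alpha, had log2 signals of 7.37, 6.63 and 8.07 in 3D replicates 1, 2 and 3, against 5.75, 5.72 and 6.23 in 2D replicates 1, 2 and 3. Again all 3D arrays were above all 2D arrays, but the 3D arrays were spread over more than 1 log2 unit. The difference was 1.46 ± 0.35 (SE, n = 3 each, 95% interval 0.64 to 2.27, limma adjusted p = 0.137). When single arrays were left out it ran from 1.10 (without 3D replicate 3) to 1.82 (without 3D replicate 2), with adjusted p from 0.0481 to 0.422, and of the 6 omissions only that of 3D replicate 2 passed the threshold. With array weights IL1A also passed (1.56, adjusted p = 0.0439). FGF1, a fibroblast growth factor, differed by -0.18 (95% interval -0.71 to 0.36, adjusted p = 0.724), with overlapping groups.

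S100A10, or p11, does not bind calcium and forms a tetramer with the annexin ANXA2 that holds plasminogen at the cell surface. Its log2 signal was 11.78, 11.44 and 11.84 in 3D replicates 1, 2 and 3, against 12.03, 11.94 and 12.08 in 2D replicates 1, 2 and 3. The 3D arrays were all below the 2D arrays, by 0.10 at the nearest, and 3D replicate 2 was the lowest. The means were 11.69 ± 0.22 in 3D and 12.02 ± 0.07 in 2D (SD, n = 3 each), a difference of -0.33 ± 0.16 (SE, 95% interval -0.71 to 0.05, limma adjusted p = 0.385). Without 3D replicate 2 the difference was -0.20, the value nearest to 0 when single arrays were left out.

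Neither ANXA2 nor AHNAK, partners of S100A10, passed the threshold with the settings of the report. ANXA2 had log2 signals of 10.54, 10.72 and 10.45 in 3D and 10.55, 10.49 and 10.15 in 2D (replicates 1, 2 and 3 each), which overlap, with a difference of 0.17 (95% interval -0.23 to 0.57, limma adjusted p = 0.644) that ran from 0.05 (without 2D replicate 3) to 0.25 when single arrays were left out. A further probe set, shared by ANXA2 and its pseudogene ANXA2P2, differed by 0.65 (adjusted p = 0.220). AHNAK, a giant scaffold protein that binds the S100A10 and ANXA2 complex, was measured by a probe set that also carries IGHG1. It had 6.55, 6.41 and 6.27 in 3D and 7.31, 7.40 and 7.22 in 2D (replicates 1, 2 and 3 each), and every 3D array was far below every 2D array. The difference was -0.90 ± 0.15 (SE, 95% interval -1.25 to -0.55, limma adjusted p = 0.0652), which passed the threshold when dim probe sets were left out (adjusted p = 0.0392) and with array weights (adjusted p = 0.0338).

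S100A11 is a partner of the annexin ANXA1 in membrane repair and growth control. Its log2 signal was 9.15, 8.91 and 8.95 in 3D replicates 1, 2 and 3, against 8.80, 8.98 and 8.86 in 2D replicates 1, 2 and 3. The groups overlapped, with 2D replicate 2 above 3D replicates 2 and 3. The difference was 0.13 ± 0.15 (SE, n = 3 each, 95% interval -0.22 to 0.48, limma adjusted p = 0.694), and it ran from 0.06 (without 3D replicate 1) to 0.18 when single arrays were left out. RefSeq lists 10 pseudogenes of S100A11 by symbol, whose part in the signal was not tested. ANXA1 had 11.67, 11.73 and 11.50 in 3D and 11.35, 11.10 and 11.25 in 2D (replicates 1, 2 and 3 each), without overlap. Its difference of 0.40 (95% interval 0.05 to 0.76) had an adjusted p of 0.287.

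S100A14 and S100A16 are neighbours on chromosome 1, are expressed in epithelia and can pair with each other as proteins. S100A14 had log2 signals of 6.45, 6.27 and 7.10 in 3D replicates 1, 2 and 3, against 6.92, 6.59 and 6.67 in 2D replicates 1, 2 and 3. The 3D arrays held both the highest and the lowest value, so the groups overlapped. The difference was -0.12 ± 0.24 (SE, n = 3 each, 95% interval -0.67 to 0.43, limma adjusted p = 0.826), and dropping 3D replicate 2 gave 0.05, whereas dropping 3D replicate 3 gave -0.37. S100A16 had 6.73, 5.63 and 6.46 in 3D replicates 1, 2 and 3, against 6.48, 6.83 and 6.73 in 2D replicates 1, 2 and 3. Here 3D replicate 2 stood below every other array, while 3D replicate 1 lay among the 2D arrays and 3D replicate 3 just below them. The difference of -0.41 ± 0.28 (SE, n = 3 each, 95% interval -1.07 to 0.25, limma adjusted p = 0.510) was -0.09 without that array and -0.64 without 3D replicate 1. The SDs of S100A16 were 0.57 in 3D and 0.18 in 2D.

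S100P, first found in placenta and known from carcinomas, binds the membrane linker ezrin (EZR) and the receptor RAGE (AGER). It had log2 signals of 5.98, 5.64 and 6.70 in 3D replicates 1, 2 and 3, against 5.89, 5.90 and 5.53 in 2D replicates 1, 2 and 3. A single array, 3D replicate 3, stood above the others, and 3D replicate 2 was below 2 of the 2D arrays. The difference was 0.33 ± 0.28 (SE, n = 3 each, 95% interval -0.31 to 0.98, limma adjusted p = 0.573), and dropping 3D replicate 3 gave 0.04, whereas dropping 3D replicate 2 gave 0.57. EZR had 9.35, 9.05 and 9.39 in 3D and 9.61, 9.73 and 9.65 in 2D (replicates 1, 2 and 3 each), and the 3D arrays were all below the 2D arrays. Its difference was -0.40 (95% interval -0.76 to -0.04, limma adjusted p = 0.295), and -0.29 without 3D replicate 2. AGER differed by 0.02 (95% interval -0.41 to 0.44, adjusted p = 0.971).

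S100B, a protein of glia and melanocytes and a RAGE ligand, had the dimmest probe set of the 8 genes, at the 5.82 percentile of mean signal. Its log2 signal was 3.86, 3.62 and 3.42 in 3D replicates 1, 2 and 3, against 3.53, 3.26 and 2.90 in 2D replicates 1, 2 and 3. The groups overlapped in 1 pair of arrays. The difference was 0.40 ± 0.21 (SE, n = 3 each, 95% interval -0.08 to 0.89, limma adjusted p = 0.398), with 0.24 to 0.55 when single arrays were left out and the lowest without 2D replicate 3. Among the 2201 probe sets below the 10th percentile, the median difference was 0.08 and 60.0% were above 0.

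**Figure D2:**
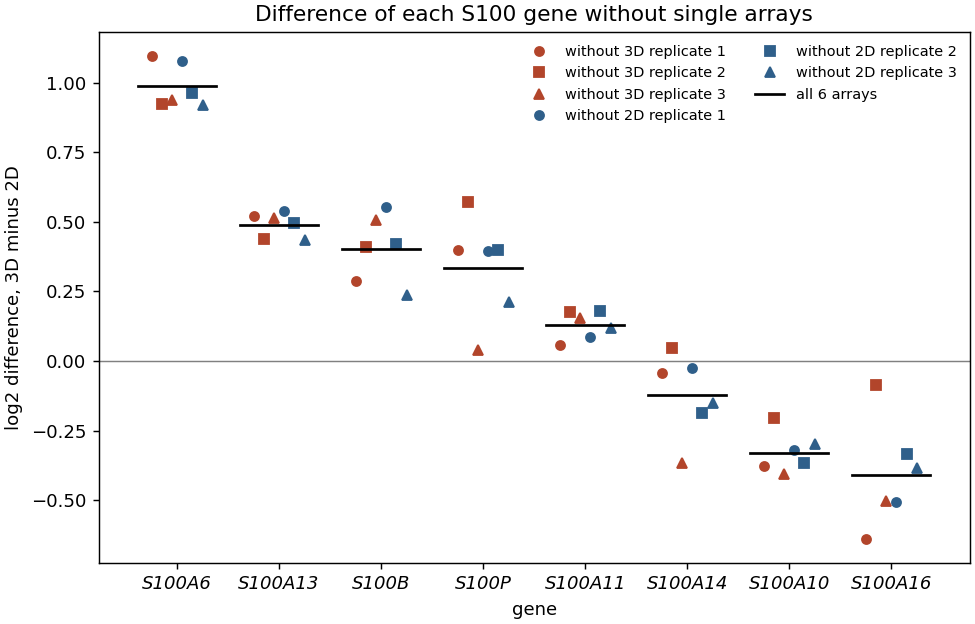
Log2 difference, 3D minus 2D (vertical axis), of each of the 8 S100 genes (horizontal axis) with all 6 arrays (line) and without 1 array at a time (points, marked by the array left out). S100A6 stays between 0.92 and 1.09, while S100A14 lies at 0.05 without 3D replicate 2 and S100P at 0.04 without 3D replicate 3.

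The SD was larger in 3D for 6 of the 8 S100 genes and larger in 2D for 2, S100A13 and S100B, beside 68.9% of all probe sets with the larger SD in 3D. 3D replicate 2 was the lowest 3D array for 5 genes (S100A10, S100A11, S100A14, S100A16 and S100P), 3D replicate 1 for 2 and 3D replicate 3 for 1. For S100A6 and S100A13 it was instead the highest 3D array.

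The other S100 genes of the array were measured by 6 probe sets for 7 genes, while S100A1, S100A4 and S100A5 were not analysed here. None passed the threshold in either direction, 4 of 6 were higher and 0 lower at an unadjusted limma p of 0.05 (7.17% and 7.94% of all probe sets), and their median difference was 0.49. The highest of the 6 lay at the 35.0 percentile of mean signal, and below the 40th percentile 61.1% of 8804 probe sets were above 0. S100A8, a subunit of calprotectin with S100A9, had 5.91, 4.28 and 6.91 in 3D replicates 1, 2 and 3, against 4.02, 3.60 and 3.67 in 2D replicates 1, 2 and 3. The 3D arrays were above the 2D arrays but spread over more than 2 log2 units, with 3D replicate 2 nearest to 2D. The difference was 1.94 ± 0.57 (SE, n = 3 each, 95% interval 0.60 to 3.27, limma adjusted p = 0.205), and when single arrays were left out it ran from 1.33 (without 3D replicate 3) to 2.65 (without 3D replicate 2), with adjusted p from 0.0250 to 0.537. Of the 6 omissions only that of 3D replicate 2 passed the threshold, as did the fit with array weights (2.24, adjusted p = 0.0400). S100A9 differed by 0.44 (adjusted p = 0.298), S100A12, a further RAGE ligand, by 0.52 (adjusted p = 0.330) and the brighter probe set shared by S100A7 and S100A7A, proteins of inflamed skin, by 0.49 (adjusted p = 0.243). The dimmer probe set of that pair, at the 15.0 percentile of mean signal, differed by 0.78 (limma adjusted p = 0.209). S100A9, S100A7 and S100A7A were chosen for mention after their values were seen.

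**Figure D3:**
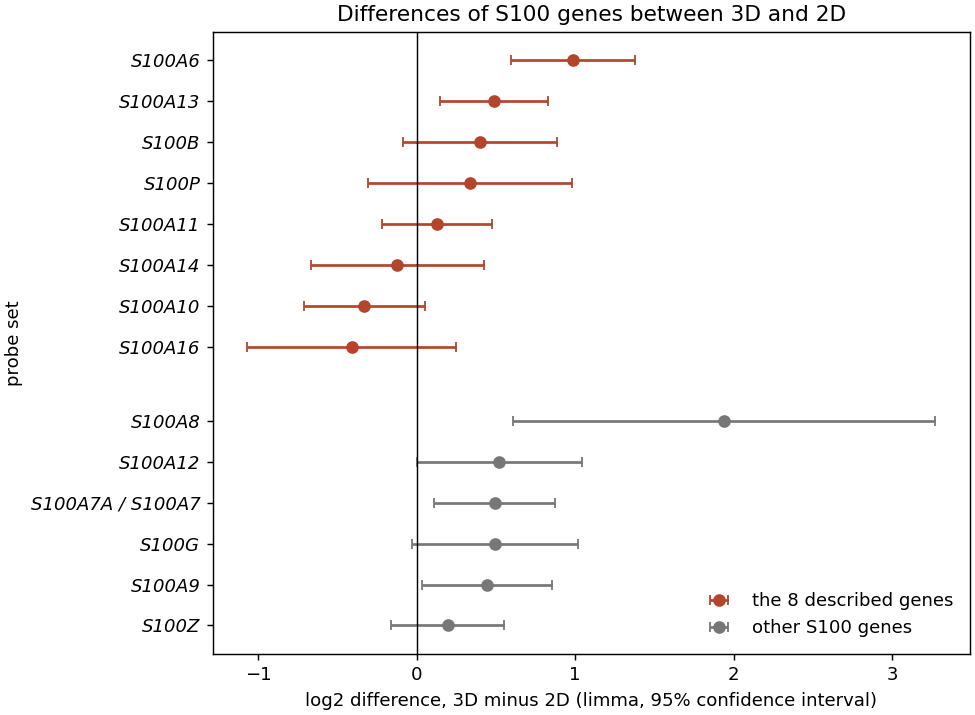
Log2 difference, 3D minus 2D (horizontal axis), with the 95% interval of the limma fit for the probe sets of the 8 described S100 genes (red) and of the other S100 genes (grey). The interval of S100A6 runs from 0.59 to 1.38 and that of S100A13 from 0.15 to 0.83, and the intervals of the other 6 described genes include 0.

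S100A8, S100A9 and S100A12 are abundant in neutrophils and monocytes, so leukocyte markers were read beside them. Of 10 leukocyte markers, 9 had a probe set and 0 passed the threshold (3 higher and 0 lower at an unadjusted limma p of 0.05), with 8 above 0, 1 below and a median difference of 0.25. Over all probe sets 7.17% were higher and 7.94% lower at that p, and 56.6% of differences were above 0, or 61.1% below the 40th percentile of mean signal. Their log2 signals summed to 49.84 to 51.79 in 3D and 47.79 to 49.41 in 2D. CD14, the lipopolysaccharide co-receptor, differed by 0.71 (limma adjusted p = 0.144) and CD2, a T cell adhesion molecule, by 0.47 (adjusted p = 0.255), at the 38.7 and 13.7 percentile of mean signal. The 1 marker below 0 was CD68 (-0.15, limma adjusted p = 0.753), chosen for mention after its values were seen. It lay at the 93.9 percentile, with overlapping groups. The 3D arrays lay wholly above the 2D arrays for 4 leukocyte markers and wholly below for 0, beside 12.7% and 10.04% of all probe sets. Fibroblast markers (10 of 10 measured) were all above 0 with 0 calls (also 0 in either direction at an unadjusted limma p of 0.05) and summed to 52.06 to 53.69 in 3D and 50.17 to 51.82 in 2D. Endothelial markers (8 of 8 measured) had 6 above 0 and 0 calls (1 higher and 0 lower at an unadjusted limma p of 0.05) and summed to 40.61 to 41.13 in 3D and 39.64 to 40.67 in 2D, and EMCN, a sialomucin of vessels, differed by 0.38 (adjusted p = 0.299). HCC827 is a single cultured line, and the part of these markers in the S100 values was not tested.

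Genes of the S100 interaction partners and receptors were measured for 23 of 25 list members. None passed the threshold, 13 were above 0 and 10 below, and the median difference was 0.02. At an unadjusted p of 0.05, 3 were higher (IL1A, ANXA1 and PPP5C, a protein phosphatase that differed by 0.49 with an adjusted p of 0.289 and was chosen for mention after its values were seen) and 2 lower (AHNAK and EZR), beside the 7.17% and 7.94% of all probe sets given above.

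The fused S100 and cornified envelope genes share the chromosome 1 cluster, and most build the barrier of stratified epithelia. PGLYRP3 and PGLYRP4, peptidoglycan recognition proteins, are counted in the list but are not envelope proteins, and PGLYRP4 is among those counted higher below. Of the fused S100 genes only TCHH and CRNN had a probe set. The list was measured by 15 probe sets for 19 of 26 symbols, and LOR, without a probe set, is an older symbol of the measured LORICRIN. None passed the threshold (5 higher and 0 lower at an unadjusted limma p of 0.05), and all 15 differences were above 0, with a median of 0.42, and 6 had 3D arrays wholly above the 2D arrays. Over all probe sets the shares were 7.17% higher and 7.94% lower at that p, 56.6% above 0 and 12.7% wholly above. Below the 40th percentile of mean signal, 61.1% of probe sets were above 0 and 13.1% wholly above. The list ran from the 9.50 to the 83.3 percentile. SPRR3, a small proline-rich envelope protein, had 5.48, 5.14 and 5.69 in 3D and 4.76, 4.03 and 4.37 in 2D (replicates 1, 2 and 3 each), without overlap. Its difference was 1.05 ± 0.23 (SE, 95% interval 0.51 to 1.59, limma adjusted p = 0.118), at the 22.5 percentile of mean signal. The probe set shared by LCE3D and LCE3E, late envelope proteins, differed by 1.14 (adjusted p = 0.235), at the 33.7 percentile. Its groups also did not overlap, but were only 0.07 apart at their nearest arrays. The probe sets shared by SPRR1A and SPRR1B, which encode cross-linked envelope precursors, differed by 0.94 (adjusted p = 0.125) and 1.86 (adjusted p = 0.143), and were chosen for mention after their values were seen.

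Among 41 other genes of EF-hand proteins, the superfamily of the S100 proteins, 1 gene was called, lower in 3D. Over all probe sets 0.145% were called higher and 0.236% lower. In the list 22 differences were above 0 and 19 below, with a median of 0.04, beside 56.6% above 0 over all probe sets. At an unadjusted limma p of 0.05, 3 were higher and 2 lower, beside 7.17% and 7.94% of all probe sets. The called gene was CALB1, which encodes the calcium buffer calbindin. Its log2 signal was 5.03, 4.76 and 5.60 in 3D replicates 1, 2 and 3, against 7.51, 7.13 and 7.35 in 2D replicates 1, 2 and 3. All 3D arrays were more than 1.5 log2 units below all 2D arrays. CALB1 fell by 2.20 ± 0.24 on the log2 scale (SE, n = 3 each, 95% interval -2.75 to -1.65, limma adjusted p = 0.0174). With 1 array fewer the call was lost without 3D replicate 1 (adjusted p = 0.0716) and without 2D replicate 1, 2 or 3 (adjusted p = 0.135, 0.0783 and 0.115).

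**Figure D4:**
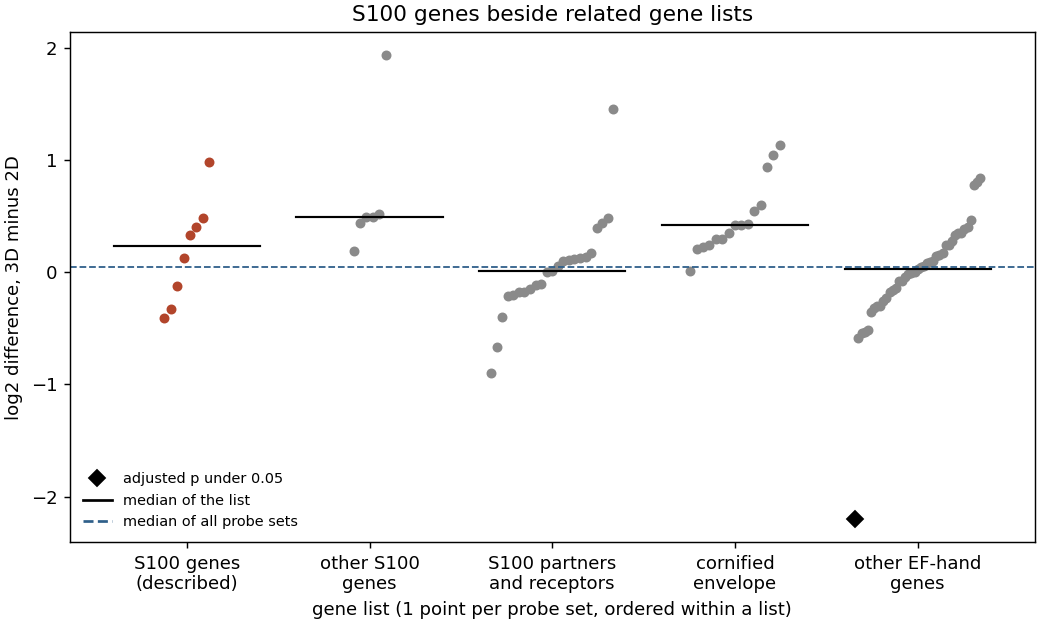
Log2 difference, 3D minus 2D (vertical axis), of every probe set in the list of described S100 genes (red) and in 4 related lists (grey), with the median of each list (black line) and of all probe sets (dashed line). The medians are 0.23 for the described S100 genes, 0.49 for the other S100 genes, 0.02 for partners and receptors, 0.42 for cornified envelope genes and 0.04 for other EF-hand genes, and the diamond is CALB1.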

How the data were processed

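Exon arrays of HCC827 RNA (3D and 2D, 3 each) were all used, in the groups the labels give. Per the labels and methods, the authors used oligo, an R package, to run RMA and deposited log2 signals. The sources used here give no version. The values were used as given. RMA equalises the distributions of the arrays, so that a shift of all genes together would not be seen, and the number of arrays limits the precision.

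Symbols came from the platform annotation, in which 14432 probe sets carried 1 symbol, 2408 several and 5171 none. Of the first, 14404 matched RefSeq by Entrez ID. No source used here names the annotation's genome build, so array features have no coordinates. A gene with several probe sets was read from the brightest by mean over the 6 arrays. The contrast of 3D minus 2D was estimated by limma 3.58.1 (R 4.3.3) for all 22011 probe sets (2-sided, moderated statistics, Benjamini-Hochberg adjustment over all of them, threshold 0.05), after the script was tested on simulated data. Intervals are 95% intervals of the fit.

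Named were all S100 genes of the list, their known partners (ANXA2, ANXA1, CACYBP, EZR, AGER, FGF1, IL1A) and, per further list, each gene past the threshold or else the 2 with the largest absolute difference at an unadjusted p of 0.05. Genes named beyond this rule are marked so, tell what a list holds or serve as checks of the label. The genes and lists were chosen with earlier results of these data known. The alternatives were removal of dim probe sets (mean signal under the 40th percentile), a threshold of 0.1, array weights, omission of each array, an intensity trend, a robust prior, a block for the replicate number, probe sets with 1 symbol only and averaging of a gene's probe sets. Promoter windows came from a RefSeq table (GRCh38.p14) and were searched on both strands with Python 3.11.15, and figures were drawn with matplotlib 3.10.9.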

Additional observations from a re-analysis of the deposited data

How the results depend on the processing

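Of 103 values of single S100 genes under the 13 alternatives that refit the data or choose other probe sets, at the threshold of 0.05, 100 kept their direction and their side of it, 2 (both of S100A6) came to pass it and 1 changed sign. S100 genes called higher numbered 0 with the settings of the report and 1 (S100A6) with dim probe sets left out, with array weights and at a threshold of 0.1, and S100 genes called lower numbered 0 throughout. S100A14 changed sign when 3D replicate 2 was dropped (0.047), within a range of -0.37 to 0.047 when single arrays were left out. The genes called in the other lists numbered 1 (CALB1), against 2 with dim probe sets left out, 4 with array weights, 2 at a threshold of 0.1 and 2 with the mean over probe sets (the addition being the SPRR1A and SPRR1B pair, 1.40, adjusted p = 0.0475), and 0 to 3 when single arrays were left out. Calls over all probe sets numbered 84, against 152 with dim probe sets left out, 415 with array weights, 290 at a threshold of 0.1 and 0 to 150 when single arrays were left out. Dropping 2D replicate 1, 2 or 3 left 0 calls in each case and dropping 3D replicate 1 left 7, whereas dropping 3D replicate 2 gave 150 and dropping 3D replicate 3 gave 145. The filter tests fewer probe sets and an omission leaves fewer arrays, and the cause was otherwise not tested.

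With the replicate block, 86 probe sets were called, against 84 without it, and no call of an S100 gene or of CALB1 changed. Deviations of same-numbered 3D and 2D arrays correlated by 0.0892, 0.374 and 0.223 for replicates 1, 2 and 3, and each 3D array correlated best with its own number. The labels name no pairing or batch by replicate number. With 3 arrays per group such a match can arise by chance. The replicate block treats same-numbered arrays as pairs, and whether they were paired was not tested. S100B has no value with dim probe sets left out, and background correction could not be varied on RMA values, which also hold no measure of signal over background.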
